A study of Mus musculus with 3 samples.

Results

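Cycling macrophages were the cells that carried both macrophage transcripts and transcripts made by dividing cells in regenerating tibialis anterior muscle. They were chosen from measured values. Among cells with at least 500 detected genes and under 10% mitochondrial UMIs (unique molecular identifiers, which count captured transcripts), a macrophage gate took those with at least 3 UMIs of Adgre1, Csf1r and Fcgr1 together and 0 UMIs of Pdgfra, Cd209a and Cd3e. Gated cells with at least 5 UMIs of Mki67, Top2a, Cdk1, Birc5 and Cenpf together were called cycling. This gave 2338 cycling macrophages among 19974 gated macrophages, 35247 kept cells and 38748 deposited barcodes. There were 735 from young PBS, 652 from old PBS and 951 from old rMETRNL mice, and sets of 3 values below follow that order.

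The 3 libraries, 1 per group, came from C57/BL6J mice whose muscle was injured with an injection of barium chloride, a salt that kills muscle fibres, and taken on day 4. Young PBS mice were 3 to 4 months old and old PBS mice 24 to 26 months old, and both received saline vehicle into the muscle. Old rMETRNL mice were also 24 to 26 months old and received recombinant meteorin-like protein by the same route. Each library pooled the cells of 3 samples of its group, so mice could not be told apart and no group had a replicate. Groups were therefore not tested against each other. The intervals given are 95% counting intervals. They hold for the libraries as sequenced and leave out how mice vary. The intervals of gene levels and gene ratios count UMIs summed over cells, so they also leave out how cells vary.

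Macrophages of injured muscle come largely from blood monocytes that enter as Ly6C-high cells, clear debris, and later turn into Ly6C-low cells that help repair. Mature macrophages can also divide where they are, usually under the control of colony-stimulating factors, and tissue-resident macrophages are known to keep their numbers this way. In a dividing cell the D cyclins and their kinases release E2F factors, which turn on the DNA replication genes of S phase, and a later wave of genes, many with CCAAT boxes and a CHR element in their promoters, drives G2 and mitosis.

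The libraries held 218059089, 179295668 and 228966697 UMIs, of which 19905738, 17745984 and 26784435 lay in cycling macrophages. A cycling macrophage had a median of 25040, 24028.5 and 24717 UMIs, against 13974, 14673 and 14100 UMIs in the other gated macrophages. The cycling cells also had more detected genes, with medians of 4793, 4604 and 4759 against 3241, 3377 and 3298. Levels are therefore given as CPM, the standard sequencing unit in which the UMIs of a gene are divided by all UMIs of the same cells in the same library. Pairs of libraries shared 58 to 80 barcodes, and among cycling macrophages 1 barcode was shared, between young PBS and old PBS.

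The genes that chose the cells are given as a description. Mki67, a marker of all active cycle phases (ENSMUSG00000031004, chr7:135689784-135716361), was at 416 (young PBS), 493 (old PBS) and 445 CPM (old rMETRNL). Top2a, the topoisomerase that untangles replicated DNA (ENSMUSG00000020914, chr11:98992943-99024189), was at 420.2, 419.6 and 432 CPM. Birc5, the survivin subunit of the chromosomal passenger complex (ENSMUSG00000017716, chr11:117849251-117855743), was at 300.1, 249 and 283 CPM. No library was highest for all 5 genes. Cdk1, the kinase that starts mitosis (ENSMUSG00000019942, chr10:69335146-69352938), was at 161, 149 and 164 CPM, and the kinetochore protein gene Cenpf (ENSMUSG00000026605, chr1:189640606-189688086) was at 175, 162 and 179.7 CPM. In the other gated macrophages the 5 genes together were at 35.0, 37.3 and 35.3 CPM, against 1473, 1473 and 1503 CPM in cycling cells.

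The cut was not a gap in the data. Exactly 5 UMIs of these genes were found in 77, 77 and 83 cycling cells, just inside the cut, and exactly 4 in 110, 134 and 113 cells just outside it. The median over cycling cells was 21, 21 and 24 UMIs and the highest cells had 232, 230 and 244. The label was checked with markers that the rule had not used. Of 10 macrophage markers, none was at 0, and their summed level in cycling cells was 18249, 20661 and 18836 CPM, against 26976, 25092 and 25789 CPM in other gated cells. Among them, the complement gene C1qa was at 2617, 2958 and 2475 CPM in cycling cells and the lysozyme gene Lyz2 at 7522, 8246 and 8098 CPM. The gate gene Adgre1, which encodes F4/80 and had to be present under the rule, was at 312, 329 and 302 CPM, against 423, 412 and 389 CPM in the others.

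The promoters of the 5 genes are shown because the timing of these genes in the cycle is tied to short elements near their starts. The sequences run 5′ to 3′ from 120 bases before to 10 bases after the RefSeq start on GRCm38.p6. Capitals mark CCAAT, the CHR element TTTGAA and the E2F elements TTCCCGC or TTGGCGC, on either strand.
Mki67 promoter (chr7:135716370-135716499, minus strand): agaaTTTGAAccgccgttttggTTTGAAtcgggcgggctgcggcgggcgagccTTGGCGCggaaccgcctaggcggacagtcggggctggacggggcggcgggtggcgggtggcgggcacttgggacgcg
Top2a promoter (chr11:99024180-99024309, minus strand): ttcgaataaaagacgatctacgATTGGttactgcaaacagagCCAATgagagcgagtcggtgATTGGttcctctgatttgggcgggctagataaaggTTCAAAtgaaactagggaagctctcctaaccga
Cdk1 promoter (chr10:69352903-69353032, minus strand): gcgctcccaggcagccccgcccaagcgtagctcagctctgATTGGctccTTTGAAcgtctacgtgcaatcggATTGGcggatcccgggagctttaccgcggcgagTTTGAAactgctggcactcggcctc
Cenpf promoter (chr1:189688077-189688206, minus strand): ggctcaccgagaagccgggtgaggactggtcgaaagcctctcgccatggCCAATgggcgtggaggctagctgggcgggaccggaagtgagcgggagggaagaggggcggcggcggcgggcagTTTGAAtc
Birc5 promoter (chr11:117849117-117849246, plus strand): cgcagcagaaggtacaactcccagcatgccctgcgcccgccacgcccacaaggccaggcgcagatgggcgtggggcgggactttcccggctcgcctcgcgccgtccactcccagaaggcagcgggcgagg
In the longer window of 250 bases before to 50 after the start, Mki67, Top2a, Cdk1 and Cenpf each held both CCAAT and the CHR element, and Birc5 held none of these motifs. Both elements were found in 7.01% of all 27025 mouse promoters of the same length. Among the G2/M genes listed below, 17 of the 26 with a promoter in the table held both, and 2 of 26 held an E2F element. Of the S phase genes, 2 of 25 held both and 12 of 25 held an E2F element, beside 6.93% of all promoters. A match describes letters only and does not show a bound factor.

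The expression profile moved gradually with the number of cell cycle UMIs. The summed level of 30 S phase genes went from 347 CPM in young PBS macrophages with 0 cell cycle UMIs to 961 CPM at 5 to 9 UMIs and 2398 CPM at 30 or more. The summed level of 32 G2/M genes went from 229 to 718 to 5594 CPM over the same classes. At 10 to 29 UMIs the S phase genes were at 2020.1 CPM, close to their highest class, and the G2/M genes at 2180.5 CPM, below theirs. The classes count UMIs of the rule genes, which are mostly G2/M genes, so the rule itself favours a rise of the G2/M list. They were not corrected for depth, and median UMIs in young PBS were 13120 at 0 and 31997 at 30 or more. The order of S phase and G2/M was not tested. In old PBS the lowest and highest classes were at 383 and 2477 CPM for S phase and 225 and 5230.4 CPM for G2/M. In old rMETRNL they were at 366 and 2476 CPM and at 225 and 5309 CPM.

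Lyz2 and Csf1r were lower in the classes with the most cell cycle UMIs, though not step by step. Lyz2 was at 13467 CPM with 0 cell cycle UMIs and 6378 CPM with 30 or more in young PBS, at 11606 and 6777 CPM in old PBS, and at 13045 and 7127 CPM in old rMETRNL. In old PBS Lyz2 was still at 11641 CPM with 5 to 9 UMIs, level with the class at 0. The receptor gene Csf1r, one of the gate genes, was at 695 and 427 CPM, 723 and 435 CPM, and 625 and 402 CPM in the lowest and highest classes, and in old PBS it was at 768 CPM with 5 to 9 UMIs. The monocyte gene Ly6c2 had the largest fold between these classes among these 3 genes, with 399.7 and 25.97 CPM in young PBS, 152 and 13.5 CPM in old PBS, and 336 and 32.7 CPM in old rMETRNL. Mrc1, the mannose receptor of tissue macrophages, was highest in the middle classes in all 3 libraries, for example at 283, 459 and 357 CPM with 0, 5 to 9 and 30 or more UMIs in young PBS. The CPM values of all genes in a class share a fixed total, so the courses of different genes are not independent.

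**Figure D1:**
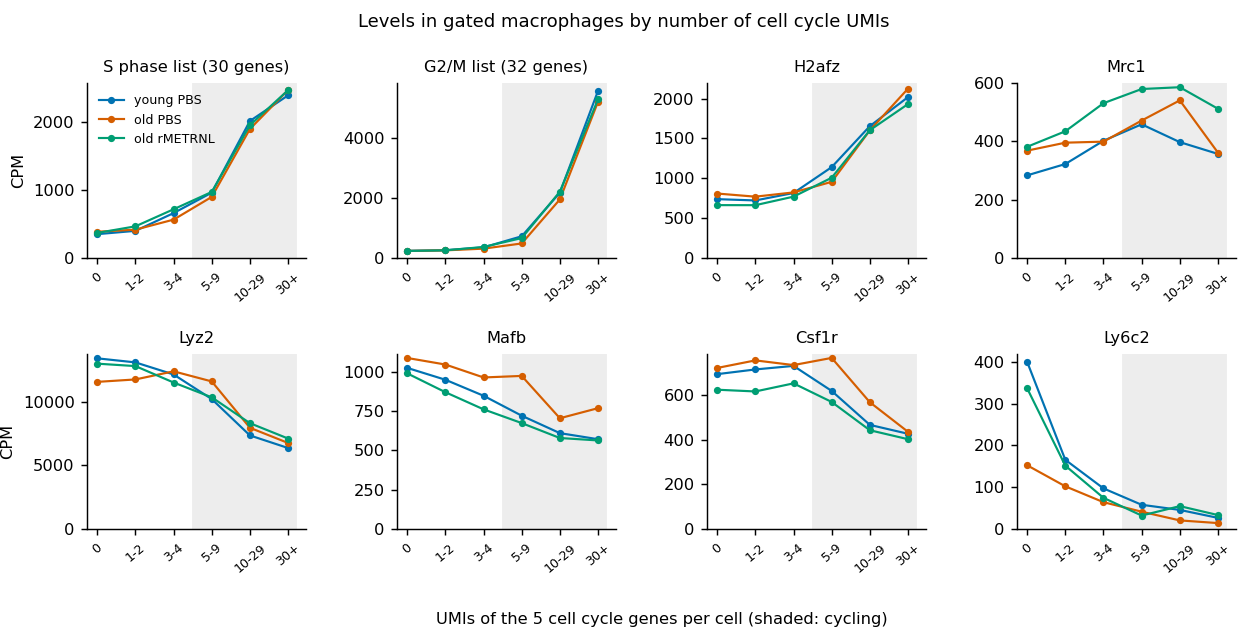
Levels in CPM (vertical axes, linear) in gated macrophages grouped by their UMIs of the 5 cell cycle genes (horizontal axis), with 1 line per library and the cycling classes shaded. The S phase list, the G2/M list and H2afz were highest at 30 or more UMIs, and Ly6c2 was highest at 0 UMIs, at 399.7 CPM in young PBS against 25.97 CPM at 30 or more.

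Cells with more S phase than G2/M transcripts were the smaller group. After each cell was thinned to 5000 UMIs, which left out 4, 2 and 6 cycling cells, more S phase than G2/M UMIs were found in 29.3% (25.997% to 32.7%), 34.3% (30.7% to 38.1%) and 29.8% (26.9% to 32.9%) of cycling macrophages. More G2/M UMIs were found in 65.9%, 57.4% and 65.3%. The 5 genes of the rule are mostly G2/M genes, so the rule itself favours that stage of the cycle.

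The cycling cells differed from the other gated macrophages in far more than the 5 genes. This contrast was used by the rule and is given as a description. Of 14589 genes, 5.65% were at least 2-fold higher in cycling cells in all 3 libraries and 0.459% at least 2-fold lower, and the median log2 ratio of cycling over other cells was 0.20, 0.09 and 0.15. Centring with median-of-ratios size factors shifts all these log2 ratios by -0.23, -0.14 and -0.17. With the 5 rule genes left out, the genes with the largest ratios in every library, all with roles in DNA replication, repair or cell division, were Pbk, Nusap1, Kif14, Hmmr, Hist1h1b, Aspm, Esco2, Plk1, Ccna2, Kif18b, Neil3 and Kif4. Nusap1, a spindle protein, was at 123, 130.001 and 136 CPM in cycling cells and 0.942, 1.07 and 1.26 CPM in the others. Esco2, an acetyltransferase that ties sister chromatids together in S phase, was at 28.4, 26.3 and 33.4 CPM against 0.131, 0.3001 and 0.256 CPM.

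Of the 30 S phase genes, 28 were at least 2-fold higher in all 3 libraries, with median log2 ratios of 2.66, 2.73 and 2.57. The sliding clamp gene Pcna was at 326 (young PBS), 363 (old PBS) and 320.1 CPM (old rMETRNL) and the ribonucleotide reductase gene Rrm1 at 134, 131 and 129.6 CPM. All 32 G2/M genes were past 2-fold, with medians of 4.89, 4.902 and 4.75. Among them the condensin gene Smc4 was at 289.7, 286 and 291 CPM and Ube2c, which helps the anaphase-promoting complex to mark cyclins for destruction, at 295, 241 and 275 CPM. The 13 DNA repair and checkpoint genes were all past 2-fold with medians of 3.099, 2.93 and 2.99, as were 13 of 15 chromatin and tubulin genes with medians of 2.68, 2.59 and 2.47. The histone variant gene H2afz had the highest level of these, 1725, 1721 and 1658 CPM. Metabolic lists moved less. Nucleotide and one-carbon synthesis genes had medians of 1.32, 1.03 and 1.22 with 7 of 12 past 2-fold, and glycolysis genes had medians of 0.64, 0.35 and 0.41 with 0 of 10 past 2-fold in all 3 libraries.

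The brakes of the cycle were divided. Cdkn2c, which encodes the kinase inhibitor p18, was higher in cycling cells, at 63.2, 66.2 and 68.1 CPM against 8.91, 9.28 and 9.404 CPM in the others. Cdkn2d, which encodes p19, was at 56.8, 44.9 and 63.99 CPM against 17.04, 11.9 and 16.6 CPM. Cdkn1a, the p53 target that encodes p21, was lower with log2 ratios of -0.48, -0.15 and -0.36, and so was the antiproliferative gene Btg2 with -0.98, -0.90 and -1.13. Of the cycle regulators, 8 of 17 were past 2-fold higher in all 3 libraries and 0 past 2-fold lower. They included Foxm1, a driver of the G2/M genes, with log2 ratios of 5.19, 5.10 and 5.14, and E2f7, a repressor of S phase genes, with 5.08, 5.31 and 4.77.

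Most monocyte genes and all antigen presentation genes listed were lower in cycling macrophages. Among 15 inflammatory monocyte genes, 4 were at least 2-fold lower in all 3 libraries, and 12 were below 0 in all 3. Ly6c2 stood at 37.8 (young PBS), 21.6 (old PBS) and 37.04 CPM (old rMETRNL) in cycling cells against 304, 128 and 255 CPM in the others. Plac8, a monocyte and granulocyte gene, was at 95.7, 39.3 and 100.2 CPM against 249, 92.4 and 245 CPM, and Chil3, a chitinase-like protein of monocytes, at 12.7, 19.8 and 29.3 CPM against 37.2, 48.1 and 90.3 CPM. The cytokine gene Tnf did not share this direction, at 154, 151 and 152 CPM against 143, 155 and 136 CPM. All 7 MHC class II genes were below 0 in every library and 4 were past 2-fold, with medians of -1.43, -1.16 and -1.18. Cd74, the invariant chain, was at 1933, 2719 and 1693 CPM in cycling cells against 5297, 6057 and 4109 CPM in the others. Other genes among the 12 with the lowest ratios included Ly6i, Ifitm6, Nxpe4, Tcp11l2, Skint3, Trp53cor1, Cd4 and Spon1. Of these, Tcp11l2 had the highest level in cycling cells, 23.5, 31.2 and 21.02 CPM, and the others were between 0.338 and 8.74 CPM.

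Genes of tissue macrophages stood near the average gene as a group. The resident-type list had medians of 0.05, 0.37 and 0.06 beside all-gene medians of 0.20, 0.09 and 0.15. Pf4, a chemokine gene strongly expressed by resident-type macrophages, was higher in cycling cells, at 2111, 1775 and 2526 CPM against 1426, 1086 and 1785 CPM. The folate receptor gene Folr2 was at 449.97, 411 and 487 CPM against 375, 306 and 441 CPM, whereas the chemokine gene Ccl8 was lower, at 523, 408 and 736 CPM against 728, 678 and 979.5 CPM. In the lipid-associated list the members also went apart. The scavenger receptor gene Cd36 had log2 ratios of 0.64, 0.63 and 0.53 and the lipase gene Lpl 0.53, 0.43 and 0.19, but the lipoprotein gene Apoe had -1.19, -0.62 and -0.97. All 10 dissociation stress genes, which respond to tissue digestion, were below 0 in every library, and the heat shock gene Hspa1a had log2 ratios of -1.16, -1.58 and -1.39.

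**Figure D2:**
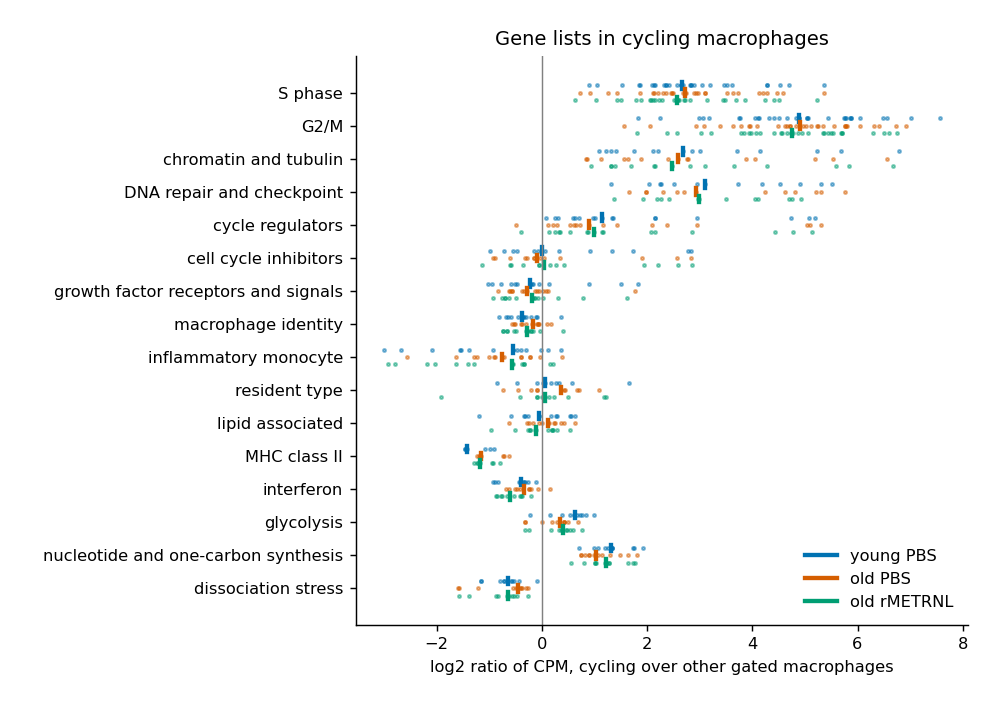
Log2 ratio of CPM in cycling over other gated macrophages of the same library (horizontal axis) for the genes of 16 lists (points) with each list's median (bars), coloured by library. The cycle lists lay to the right, with G2/M medians of 4.89, 4.902 and 4.75, and MHC class II lay to the left, with medians of -1.43, -1.16 and -1.18.

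Macrophage states defined by other genes differed in how many of their cells were cycling. Cells with at least 3 Ly6c2 UMIs were cycling in 3.59% (2.67% to 4.71%), 4.62% (3.22% to 6.40%) and 4.50% (3.46% to 5.74%) of cases, against 12.97%, 11.3% and 15.5% of macrophages with fewer. A resident-type set took cells with at least 3 UMIs of Cd163, Lyve1 and Cbr2 added together. Cbr2 had the highest level of these 3 genes in cycling cells, so a cell could enter the set on Cbr2 alone. Cells of this set were cycling in 19.5% (17.4% to 21.6%), 17.1% (15.2% to 19.1%) and 20.7% (19.1% to 22.4%) of cases, against 8.78%, 8.48% and 9.86% outside it. The low share in Ly6c2 cells and the high share in the resident-type set were seen in each of the 3 libraries. Cells with more UMIs pass both a state threshold and the cycling threshold more easily, so the shares were repeated at 5000 UMIs per cell, with at least 1 UMI for a state and at least 2 for cycling. The ratio of the share inside to the share outside was then 0.351, 0.452 and 0.316 for Ly6c2, where it had been 0.277, 0.410 and 0.290 at full depth. For the resident-type set it was 1.36, 1.46 and 1.48, down from 2.22, 2.01 and 2.10.

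The ratios of the 3 other states lay closer to 1 at 5000 UMIs, where depth and both thresholds differ at once. Cells with at least 2 UMIs of Atp6v0d2 and Rnf128, which encode a proton pump subunit and a ubiquitin ligase, had a cycling share 1.86, 1.49 and 1.58 times that of the others at full depth, and 1.10 (0.890 to 1.36), 1.01 (0.852 to 1.19) and 0.837 (0.704 to 0.990) times at 5000 UMIs. The ratios for cells with at least 3 UMIs of Il1a, Slc7a11 and Ccrl2 went from 1.2002, 1.42 and 1.304 to 0.949, 0.952 and 0.877. For cells with at least 2 UMIs of the fractalkine receptor gene Cx3cr1 they went from 1.64, 1.73 and 1.48 to 1.17 (1.01 to 1.36), 1.31 (1.12 to 1.53) and 1.204 (1.05 to 1.38). Median UMI counts inside and outside the Atp6v0d2 and Rnf128 state were 23182 and 13793 in young PBS, 22524 and 13078 in old PBS, and 23824 and 13266 in old rMETRNL.

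**Figure D3:**
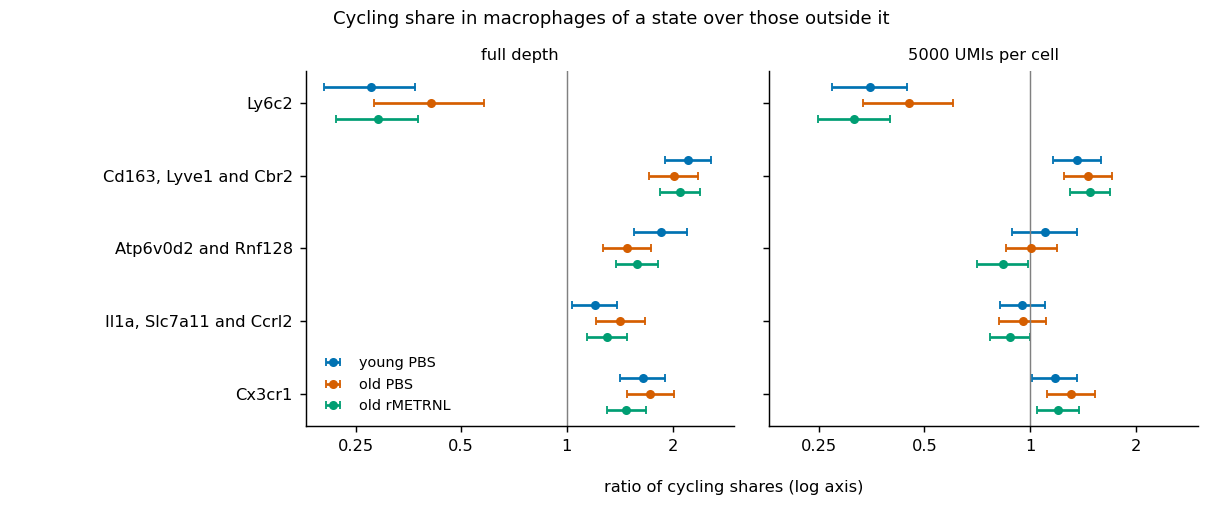
Cycling share inside a macrophage state divided by the share outside it (horizontal log axis) for 5 states, at full depth (left) and at 5000 UMIs per cell (right), with 95% counting intervals and 1 colour per library. Ly6c2 cells lay below 1 and Cd163, Lyve1 and Cbr2 cells above 1 in both panels, while the Atp6v0d2 and Rnf128 ratio of young PBS went from 1.86 to 1.10.

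The first comparison between libraries was the share of gated macrophages that were cycling. It was 11.04% (10.3% to 11.8%), 10.5% (9.73% to 11.3%) and 13.4% (12.6% to 14.2%). The ratio of old PBS to young PBS was 0.950 (0.853 to 1.06), a difference not detectable at this depth. The ratio of old rMETRNL to old PBS was 1.28 (1.16 to 1.41), and that of old rMETRNL to young PBS 1.21 (1.10 to 1.34). At 5000 UMIs per cell and at least 2 UMIs of the 5 genes, the shares were 11.5%, 11.6% and 13.3%, with ratios of 1.01 (0.906 to 1.12) for age and 1.15 (1.04 to 1.27) for treatment. With at least 1 UMI in place of 2 the treatment ratio was 1.06 (0.988 to 1.14), and with at least 5 it was 1.35 (1.17 to 1.55). The treatment ratio was larger in cells rich in these transcripts, 1.38 (1.22 to 1.56) with at least 10 UMIs against 1.10 (1.01 to 1.19) with at least 3. Without cells called doublets by Scrublet, which compares each cell with simulated mixtures, it was 1.302 (1.17 to 1.45).

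Cycling macrophages made up 47.3%, 59.9% and 53.2% of all cells that passed the cycling threshold, and 6.45%, 5.90% and 7.44% of all kept cells. Outside the macrophage gate 820, 437 and 836 cells, or 17.3%, 9.03% and 14.7%, passed the same threshold, with a treatment ratio of 1.63 (1.45 to 1.83), so the share was also higher in old rMETRNL among cells that were not gated as macrophages. The share depended on which cycle genes were counted. With at least 5 UMIs of the S phase genes Mcm5, Mcm6, Pcna, Tyms and Rrm2 in place of the rule's genes, 16.9%, 20.6% and 21.4% of gated macrophages were cycling, the age ratio was 1.22 (1.12 to 1.32) and the treatment ratio 1.04 (0.965 to 1.12). Old PBS thus stood with young PBS by the G2/M-weighted rule and with old rMETRNL by the S phase genes. The share was also compared within states. At full depth, the treatment ratio was 1.21 (1.04 to 1.42) among Cd163, Lyve1 and Cbr2 cells, 0.973 (0.630 to 1.53) among Ly6c2 cells, 1.202 (1.04 to 1.39) among Cx3cr1 cells, 1.38 (1.17 to 1.64) among Atp6v0d2 and Rnf128 cells and 1.29 (1.12 to 1.48) among Il1a, Slc7a11 and Ccrl2 cells. At 5000 UMIs, where each interval took in 1, it was 1.12 (0.959 to 1.32) among Cd163, Lyve1 and Cbr2 cells, 0.876 (0.609 to 1.27) among Ly6c2 cells, 1.10 (0.935 to 1.29) among Cx3cr1 cells, 0.991 (0.803 to 1.22) among Atp6v0d2 and Rnf128 cells and 1.09 (0.946 to 1.26) among Il1a, Slc7a11 and Ccrl2 cells. With a state held at the same share in each library, the ratio was 1.11 for the resident-type set and 1.14 to 1.21 for the other 4 states, against 1.15 without that step.

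**Figure D4:**
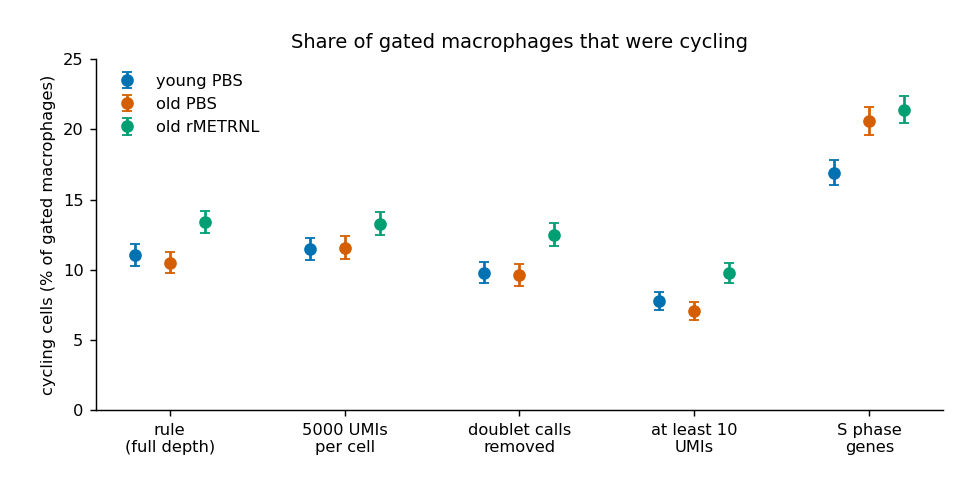
Cycling cells as a percentage of gated macrophages (vertical axis from 0) by the rule, at 5000 UMIs per cell, without doublet calls, with at least 10 UMIs of the 5 genes, and by S phase genes, with 95% counting intervals. Old rMETRNL lay above old PBS under the first 4 definitions, for example 13.4% against 10.5% by the rule, and the 2 intervals overlapped for S phase genes.

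RNA free in the suspension can give cell cycle UMIs to cells that are not dividing. Mature dendritic cells, which divide little and were chosen as a background after the data were seen, had at least 5 UMIs of the 5 genes in 5.41% of 74 cells (1.49% to 13.3%), 9.23% of 65 (3.46% to 19.0%) and 2.82% of 71 (0.343% to 9.81%), at median UMI counts of 9784, 10765 and 9172. At 20 UMIs the dendritic shares were 2.70% (0.329% to 9.42%), 1.54% (0.0389% to 8.28%) and 1.41% (0.0357% to 7.599%), against 5.84%, 5.39% and 7.51% of gated macrophages. Barcodes with under 500 genes held the 5 genes at 213, 142 and 196 CPM, above the 35.0 to 37.3 CPM of the other gated macrophages and below the 1473 to 1503 CPM of cycling cells. The dendritic intervals reached the macrophage share in young PBS and old PBS at 5 UMIs and in all 3 libraries at 20 UMIs, so with so few dendritic cells the macrophage shares could not be separated from the dendritic shares in those cases. Tendon cells with Tnmd, which had been taken as a background, were cycling in 10.6%, 6.60% and 10.7% of cases and so did not serve as one, and the neutrophil gate held 6, 7 and 11 cells.

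Doublet calls were more common among cycling macrophages, and transcripts of some other cell types differed between libraries. Doublet calls made up 19.6%, 16.6% and 15.2% of cycling cells against 7.68%, 8.07% and 8.28% of the other gated cells. None of 5 fibroblast markers was at 0 in cycling cells, and their summed level was 332, 94.4 and 216 CPM, against 253, 260.1 and 197 CPM in the other gated cells. The 4 endothelial markers were at 93.4, 40.7 and 57.7 CPM and the 4 myogenic markers at 62.3, 35.2 and 116 CPM, with none at 0. The 4 muscle fibre markers were at 65.0, 188 and 362 CPM, and the 3 erythroid markers at 40.7, 15.3 and 291 CPM, again with none at 0. These lists thus had their highest levels in young PBS or old rMETRNL. The 5 T and NK markers were at 17.2, 5.07 and 4.59 CPM, with Cd3g at 0 in young PBS. The 6 dendritic markers were at 5.97 to 7.44 CPM with Cd209a at 0 by the rule, and the 5 neutrophil markers at 31.0 to 42.3 CPM with S100a9 or Retnlg at 0 in each library. B cell markers were at 5.64 to 6.93 CPM and mast cell markers at 1.75 to 2.76 CPM, with Cpa3 at 0 in young PBS and old PBS. The part of these transcripts in the differences below was not tested, but the levels of macrophage genes were also taken in cells with none of Dcn, Pecam1, Pax7, Myod1, Flt3, Cd3d, Ms4a1 and S100a8, called the wider list of absent genes, and without doublet calls.

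The age comparison, old PBS over young PBS, asked how the cycling macrophages of injured old muscle differed from those of young muscle. Of 12517 genes, 3.41% were at least 1.5-fold higher and 11.8% at least 1.5-fold lower in old PBS, with an all-gene median log2 ratio of -0.07. Interferon-induced genes stood lowest among the lists. All 10 were at least 1.5-fold lower, with a median of -1.06 and a range of -1.64 to -0.68. Ifit3, an antiviral RNA-binding protein gene (ENSMUSG00000074896, chr19:34583531-34588731), was at 109 (young PBS), 34.7 (old PBS) and 89.2 CPM (old rMETRNL), which gave an age ratio of 0.3199 (0.292 to 0.35002). Irf7, which amplifies the interferon response, was at 341, 160.1 and 232 CPM, a ratio of 0.469 (0.449 to 0.4901). The chemokine gene Cxcl10 was at 347, 169.8 and 239 CPM and the tetherin gene Bst2 at 748, 393 and 547 CPM. The other gated macrophages showed the same list at -1.30, so this difference was not limited to cycling cells.

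Antigen presentation and lipid-associated genes stood higher in old PBS. All 7 MHC class II genes were above 0, with a median of 0.46, though none reached 1.5-fold. H2-Aa (ENSMUSG00000036594, chr17:34282744-34287823) was at 846 (young PBS), 1249.8 (old PBS) and 784 CPM (old rMETRNL), which gave an age ratio of 1.48 (1.45 to 1.51), and Cd74 had a ratio of 1.41 (1.39 to 1.43). Of 13 lipid-associated genes 12 were above 0 and 3 were past 1.5-fold, beside 3.41% of all genes, with a median of 0.41. Gpnmb, a lysosomal glycoprotein gene of lipid-laden macrophages, was at 1079.6 (young PBS), 2318 (old PBS) and 1647 CPM (old rMETRNL), the phospholipase-family gene Pld3 at 276, 517 and 366 CPM and Lpl at 684, 1123 and 847 CPM. Atp6v0d2, a proton pump subunit, was at 43.2, 159 and 85.1 CPM, an age ratio of 3.68 (3.41 to 3.98). Among macrophage identity genes the lipopolysaccharide co-receptor gene Cd14 was past 1.5-fold, at 463, 717 and 362 CPM. In the other gated macrophages the lipid-associated median was 0.34, and the age ratios of Atp6v0d2 and Cd14 were 2.98 and 1.42. The MHC class II median there was 0.19, with 4 of 7 genes above 0.

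Replication and mitosis genes of old PBS were near the average gene, and a few cycle regulators were lower. The median log2 ratio was -0.06 for S phase and -0.11 for G2/M, close to the all-gene median of -0.07, and 0 genes of either list passed 1.5-fold. Of 17 cycle regulators 3 were past 1.5-fold lower, where 11.8% of all genes were, so the list as a whole was close to the background. Ccnd1, the cyclin D1 gene (ENSMUSG00000070348, chr7:144929931-144939925), was at 83.9 (young PBS), 43.8 (old PBS) and 84.4 CPM (old rMETRNL), which gave an age ratio of 0.523 (0.479 to 0.569). Ccnd2 was at 10.7, 5.58 and 10.7 CPM and Myc at 24.3, 15.2 and 20.8 CPM, and with the wider list of absent genes they were at 7.85, 4.23 and 6.65 CPM and at 17.5, 11.7 and 13.9 CPM. Ccnd3, which missed 1.5-fold and is named after its values were seen, was at 33.2, 22.9 and 31.996 CPM. Glycolysis genes had a median of -0.42 with 3 of 10 past 1.5-fold lower, among them the aldolase gene Aldoa at 569, 367 and 489.9 CPM. The nucleotide synthesis list had a median of -0.18, with 12 of 12 below 0 and 0 past 1.5-fold.

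Growth factor genes went in both directions. Csf2rb, the signalling chain of the GM-CSF receptor, was at 126 (young PBS), 232 (old PBS) and 119 CPM (old rMETRNL), which gave an age ratio of 1.84 (1.75 to 1.94). Its paralog Csf2rb2, which shares much of its sequence so that reads can be split between the pair, was at 28.8, 51.1 and 27.9 CPM. Csf1, the ligand of the gate gene's receptor, was lower, at 17.8, 8.06 and 17.3 CPM, and at 10.1, 8.05 and 12.1 CPM with the wider list of absent genes. Metrnl, the gene of the injected protein, was at 181, 197 and 198 CPM, an age ratio of 1.09 (1.04 to 1.14). Of 12 cell cycle inhibitors tested, Gadd45a (1 of 12, beside 3.41% of all genes) was past 1.5-fold higher, at 19.9, 32.97 and 25.7 CPM, and Cdkn1c and Cdkn2a (2 of 12, close to the 11.8% of all genes) were past 1.5-fold lower. Cdkn2a, which encodes p16 and Arf, was at 4.32, 2.37 and 4.22 CPM, but at 0.946, 1.09 and 1.37 CPM with the wider list of absent genes, where old PBS was not below young PBS. Cdkn1c was at 38.03, 8.06 and 18.2 CPM, but with the wider list of absent genes it was at 6.24, 4.23 and 5.97 CPM.

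The treatment comparison, old rMETRNL over old PBS, asked what differed after the protein was given. It shares the old PBS library with the age comparison. A level that is high or low in that library moves both in opposite directions, and the comparisons are not independent. Of the 12517 genes, 10% were at least 1.5-fold higher in old rMETRNL and 2.60% at least 1.5-fold lower, with an all-gene median of 0.07. All 10 interferon genes were above 0 and 5 were past 1.5-fold, with a median of 0.60. Ifit3 had a treatment ratio of 2.57 (2.35 to 2.81) and Rsad2, the viperin gene, 1.91 (1.802 to 2.02), with levels of 192, 94.9 and 181 CPM. Old rMETRNL stood below young PBS in all 10 genes, with a median log2 ratio of -0.45 and 1 of 10 past 1.5-fold lower, beside 4.19% of all genes. In the other gated macrophages the list had a treatment median of 0.92.

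Resident-type genes stood higher in old rMETRNL than in both other libraries, Vsig4 excepted. Of 10 tested, 6 were at least 1.5-fold higher than in old PBS and 1 lower, beside 10% and 2.60% of all genes, with a median of 0.64. Against young PBS 3 of 10 were at least 1.5-fold higher and 1 lower, beside 3.53% and 4.19% of all genes. Lyve1, a hyaluronan receptor gene of perivascular macrophages and lymphatic endothelium (ENSMUSG00000030787, chr7:110850607-110863239), was at 10.1 (young PBS), 6.09 (old PBS) and 41.2 CPM (old rMETRNL), a treatment ratio of 6.77 (5.55 to 8.32). It was found in 34, 32 and 143 cycling cells, and no cell held over 24.4% of its UMIs in any library. With the wider list of absent genes it was at 16.9, 8.32 and 45.9 CPM, and without doublet calls at 12.7, 6.56 and 46.5 CPM. The haemoglobin scavenger receptor gene Cd163 was at 12.4, 10.9 and 23.6 CPM, the carbonyl reductase gene Cbr2 at 149, 139 and 218 CPM and the transglutaminase gene F13a1 at 156, 162 and 251 CPM. The chemokine genes Ccl8 and Ccl24 were at 523, 408 and 736 CPM and at 24.4, 21.4 and 35.7 CPM. Vsig4, a complement receptor gene, ran against the list, at 3.22, 5.02 and 0.821 CPM, and rested on 8, 12 and 8 cells. In the other gated macrophages the list had a treatment median of 0.54.

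Antigen presentation genes were lower in old rMETRNL than in old PBS. All 7 MHC class II genes were below 0 and 3 were past 1.5-fold, with a median of -0.57. The median of the list in the other gated macrophages was -0.56. H2-Aa had a treatment ratio of 0.627 (0.615 to 0.639), H2-Eb1 of 0.663 (0.649 to 0.678) and Cd74 of 0.622 (0.615 to 0.631). Cd14 had a ratio of 0.505 (0.492 to 0.518), Csf2rb of 0.513 (0.4896 to 0.537) and Csf2rb2 of 0.546 (0.495 to 0.603), whereas the receptor gene Mrc1 had a ratio of 1.27 (1.24 to 1.31). In the other gated macrophages the Cd14 ratio was 0.588. The gate gene Fcgr1 helped to choose the cells and is given as a description. It was at 307, 217 and 265 CPM, a ratio of 1.22 (1.17 to 1.27). Of 15 inflammatory monocyte genes 3 were past 1.5-fold higher and 5 lower, beside 10% and 2.60% of all genes. Thbs1, the thrombospondin gene, was lower, at 195, 256 and 141 CPM, as was the cytokine gene Il1b at 323, 417 and 263 CPM. Plac8 was higher, with a ratio of 2.55 (2.35 to 2.78), and Ly6c2 had a ratio of 1.71 (1.52 to 1.93), although with the wider list of absent genes it was at 34.6, 26.7 and 28.1 CPM.

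Cyclin D genes were higher in old rMETRNL and stood near the level of young PBS. Of 17 cycle regulators 2 were past 1.5-fold higher, where 10% of all genes were, so the list as a whole was close to the background. The list had a median of 0.06. Ccnd1 had a treatment ratio of 1.93 (1.77 to 2.09) and Ccnd2 of 1.92 (1.52 to 2.44), and against young PBS the ratios were 1.01 (0.944 to 1.07) and 1.01 (0.8395 to 1.21). The S phase and G2/M lists had treatment medians of 0.16 and 0.12 beside the all-gene median of 0.07, with 0 genes past 1.5-fold. Glycolysis genes had a median of 0.29, with 8 of 10 above 0 and 0 past 1.5-fold. Csf1 had a ratio of 2.15 (1.77 to 2.61) over all cycling cells. The heat shock gene Hspa1a, which responds to tissue digestion, was at 685 (young PBS), 249 (old PBS) and 607 CPM (old rMETRNL), and in the stress list 2 of 10 genes were past 1.5-fold higher and 1 lower, where 10% and 2.60% of all genes were. Its part in the other differences was not tested. Metrnl had a treatment ratio of 1.01 (0.964 to 1.05) in cycling cells.

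**Figure D5:**
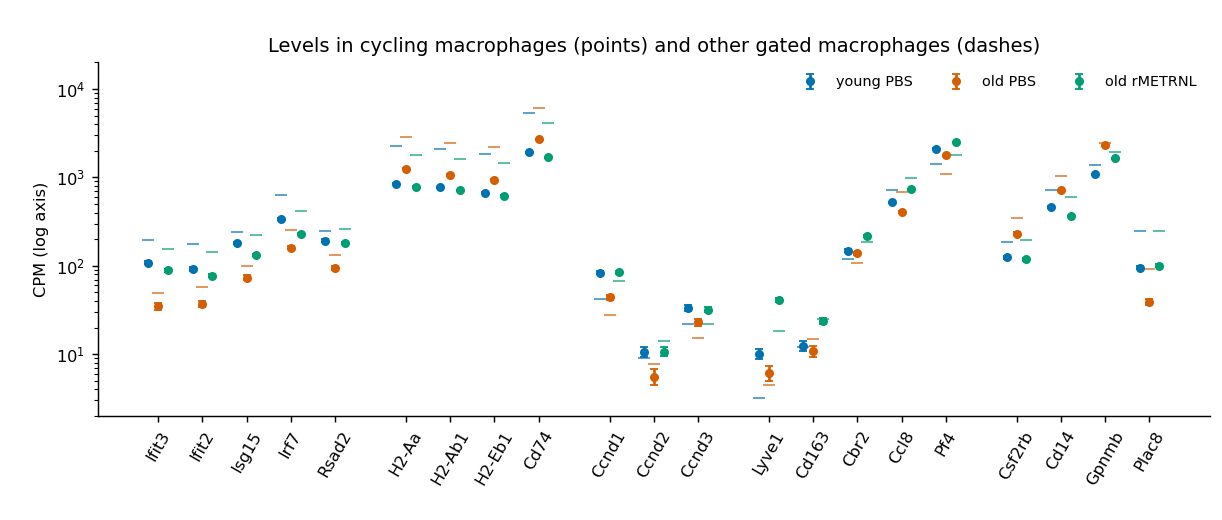
CPM on a log axis for 21 genes in cycling macrophages (points with 95% counting intervals) and in other gated macrophages of the same library (dashes), coloured by library. Interferon genes and D cyclins were lowest in old PBS, with Ccnd1 at 83.9, 43.8 and 84.4 CPM, and Lyve1 was highest in old rMETRNL, at 41.2 CPM.

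The cycling cells of the 3 libraries were spread differently over the states, as were all gated macrophages. Of cycling macrophages, 37.3% (33.8% to 40.9%), 38.0% (34.3% to 41.9%) and 50.4% (47.1% to 53.6%) belonged to the Cd163, Lyve1 and Cbr2 set, and at 5000 UMIs the shares were 32.3%, 37.5% and 46.2%. The treatment ratio at 5000 UMIs was 1.23 (1.05 to 1.44). The Atp6v0d2 and Rnf128 state made up 23.3%, 40.6% and 32.5% of cycling cells, and 14.3%, 29.3% and 18.6% at 5000 UMIs, where the age ratio was 2.06 (1.62 to 2.63) and the treatment ratio 0.632 (0.513 to 0.780). This state was thus most common among the cycling cells of old PBS, and the resident-type set among those of old rMETRNL. Cells with Il1a, Slc7a11 and Ccrl2 made up 43.5%, 62.0% and 44.8%. Of all gated macrophages, 21.2%, 23.4% and 32.6% belonged to the resident-type set, 14.05%, 31.5% and 23.3% to the Atp6v0d2 and Rnf128 state and 39.1%, 53.5% and 38.4% to the Il1a, Slc7a11 and Ccrl2 state, so these differences were not particular to the cycling cells. Ly6c2 cells were a small part in each library, at 6.67% (4.97% to 8.72%), 5.21% (3.64% to 7.21%) and 6.41% (4.94% to 8.16%). Cx3cr1 cells made up 52.9%, 51.5% and 42.9% of cycling cells, and 40.6%, 38.1% and 33.7% of all gated macrophages. Their treatment ratio among cycling cells was 0.833 (0.719 to 0.965) at full depth and 0.870 (0.740 to 1.02) at 5000 UMIs.

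Many of the genes with the most extreme ratios between libraries were genes of muscle, matrix or red blood cells, and several rested on few cells. For age the 8 highest were Myh4, Pvalb, Saa3, Olfr655, Ckm, Tnnc2, Myl1 and Atp6v0d2, and the 8 lowest included Ccl21a, Tnc, Col12a1, Col6a2, Thy1, Ptn and Col1a1. The lymphoid chemokine gene Ccl21a had 221 UMIs in young PBS, of which 99.5% lay in 1 cell, 0 UMIs in old PBS and 4 in old rMETRNL. Col1a1, the main fibrillar collagen gene of fibroblasts, was at 169, 28.5 and 74.5 CPM, and at 37.5, 27.95 and 33.1 CPM with the wider list of absent genes. The muscle creatine kinase gene Ckm was at 4.62, 28.5 and 19.7 CPM, and at 2.66, 11.7 and 19.6 CPM without doublet calls. Of these genes Atp6v0d2 is a macrophage gene, and its level was spread over more cells, with the highest cell holding 2.12% of the Atp6v0d2 UMIs in old PBS.

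For treatment the 8 highest genes were Mybph, Myh3, Hba-a2, Abi3bp, Hbb-bs, Hba-a1, Myl4 and Tnni1, genes of immature muscle, matrix and red blood cells. In old rMETRNL 1 cell held 96.6% of Mybph, 91.9% of Myh3, 91.9% of Myl4 and 86.9% of Tnni1 UMIs. Without its highest cell, Myh3 was at 1.73 CPM in place of 21.2 CPM. The globin genes depended on doublet calls, and Hbb-bs was at 24.1, 10.4 and 197 CPM with them and 7.67, 10.3 and 9.104 CPM without. The 8 lowest were Pvalb, Mgp, Pla2g2d, Samd11, Slc15a2, Sphk1, Saa3 and Abtb2. Of these, Sphk1, which makes the lipid signal sphingosine 1-phosphate, was at 5.78 (young PBS), 10.4 (old PBS) and 4.22 CPM (old rMETRNL) and was found in 73, 107 and 81 cells. Mgp was at 90.6, 124 and 32.8 CPM, with 71.8% of its old PBS UMIs in 1 cell.

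The macrophage genes named above were compared in the same way. Without the highest cell, Ccnd1 was at 81.5, 42.3 and 82.9 CPM, Lyve1 at 7.65, 5.302 and 36.6 CPM, and Gpnmb at 1063, 2289.7 and 1630.04 CPM. The wider list of absent genes, which left 430, 292 and 469 cycling cells, gave Ccnd1 at 86.4, 49.9 and 90.5 CPM and Csf2rb at 129, 213 and 107 CPM. In each case old PBS stood on the same side of the other libraries as with all cycling cells.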

How the data were processed

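Tibialis anterior muscle was studied on day 4 after barium chloride injury by droplet single-cell RNA sequencing, with 1 library per group. The values are raw UMI counts per gene and barcode, which the authors made with Cell Ranger before they were deposited; the submitters' processing notes name versions 3.1.0 and 5.0.0 and the build mm10, and the deposited matrices name 5.0.0. Total counts per library were 218059089, 179295668 and 228966697, and the precision of each value is given as its counting interval.

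Members and gene lists were chosen with earlier results of these data known. For each library and cell class, UMIs were added up and scaled to CPM. Genes with at least 50 UMIs over the libraries compared were counted, log2 ratios were taken with 0.5 added to each count, and ratios have exact conditional binomial intervals, shares Clopper-Pearson and levels exact Poisson intervals, at 95%. Depth was equalised by thinning each cell to 5000 UMIs. Scrublet's automatic threshold called 0 doublets, so the highest scores were called at 0.8% per 1000 cells; doublets were kept unless stated. The genes named were the rule and gate genes; the 8 highest and 8 lowest ratios of each library comparison and the 12 of cycling over other cells, among genes with at least 200 UMIs; and, in each list, up to 4 members with the most UMIs and any past 1.5-fold. Mitochondrial, ribosomal and Gm or Rik genes were not named. Genes outside this rule are said to be so, and a few genes that it names are not reported here. Alternatives changed the cell filter, gate, cycling threshold, depth, doublets, absent genes, scaling and gene filter. The calculations were tested on simulated data. Mature dendritic cells, low-gene barcodes and the removal of single cells were added after the data were seen. Coordinates came from GENCODE M21 and promoters from RefSeq. Python 3.11.15, numpy 2.4.6, scipy 1.17.1, pandas 2.3.3 and scanpy 1.11.5 were used.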

Additional observations from a re-analysis of the deposited data

Results flagged for a closer look

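For 3 of the marker lists, the counting intervals of the cycling to other ratio lay above 1 in one library and below 1 in another, which is why they are listed here. With 1 library per group the difference was not tested. The summed level of 5 fibroblast markers in cycling over other gated macrophages was 1.31 times in young PBS, 0.363 times in old PBS and 1.10 times in old rMETRNL. Without doublet calls these ratios were 1.02, 0.508 and 0.616, and without the cell with the most of these UMIs they were 1.07, 0.352 and 0.885. With the wider list of absent genes they were 0.938, 0.721 and 0.872, all below 1. The 4 muscle fibre markers were at 0.744, 0.525 and 2.57 times the level of the other gated macrophages. In old rMETRNL 70.6% of these UMIs lay in 1 cell, and the ratio was 0.761 without it, 3.40 without doublet calls and 0.686 with the wider list of absent genes. The 3 erythroid markers were at 0.196, 0.299 and 1.94 times, and in old rMETRNL the ratio was 0.278 without doublet calls, 0.970 without the cell with the most of these UMIs and 8.09 with the wider list of absent genes.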

How the results depend on the processing

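Of the values that answer a comparison, 118 alternatives left the value as it was within its counting interval or within 1.5 times a count, 31 moved it and 2 turned its direction; of single genes and other lists the numbers were 434, 84 and 5. The cause of these moves was not tested. The cycling share, at 0.950 for age and 1.28 for treatment, was 1.22 and 1.04 by S phase genes, and the treatment ratio was 1.10 with at least 3 cell cycle UMIs and 1.15 at 5000 UMIs. The S phase median was -0.15 for age and 0.31 for treatment with at least 3 cell cycle UMIs, 0.020 and 0.080 with size factors, and for treatment 0.069 without doublet calls and 0.26 by mean per-cell CPM. The G2/M median was -0.20 and 0.31 with at least 3 UMIs, -0.028 and 0.045 with size factors, and for treatment 0.052 with at least 10 UMIs, 0.057 with the wider list of absent genes and 0.21 by mean per-cell CPM. Size factors shifted all log2 ratios by 0.08 for age and -0.08 for treatment. The 427 genes past 1.5-fold higher with age became 694 with a minimum of 20 UMIs per gene and 192 with 200, and the 1479 lower became 717 with 200 and 670 with the wider list of absent genes. For treatment the 1256 higher became 567 with 200 UMIs and 634 with the wider list, and the 326 lower became 587 with 20 and 148 with 200. The 67 genes lower in cycling than in other cells became 108 without doublet calls, 32 and 131 with at least 3 and 10 cell cycle UMIs, and 114 with size factors. At 5000 UMIs the mean ratio over the libraries was 1.44 for Cd163, Lyve1 and Cbr2 cells and 1.23 for Cx3cr1 cells, and it turned from 1.63 to 0.976 for Atp6v0d2 and Rnf128 cells and from 1.304 to 0.926 for Il1a, Slc7a11 and Ccrl2 cells. Treatment log2 ratios turned for Hba-a2 (-0.18), Hbb-bs (-0.18) and Hba-a1 (-0.25) without doublet calls and for Mgp (0.23) and Saa3 (1.78) with at least 10 cell cycle UMIs. Over 10 alternatives the interferon median ran from -1.31 to -0.92 for age and from 0.50 to 0.83 for treatment, and the resident-type median for treatment from 0.54 to 0.86. No paired analysis was possible because each group had 1 library.

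With 1 pooled library per group, differences between mice, between dissections and between library preparations cannot be told apart from age and treatment. Genes under 50 UMIs were not compared, and cells near the cycling threshold had few cell cycle UMIs.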

Other observations

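Growth factor and sensing genes that support macrophage survival were expressed by cycling macrophages at levels near those of the other gated macrophages. Trem2, a lipid-sensing receptor gene, was at 815, 1094 and 884 CPM in cycling cells of young PBS, old PBS and old rMETRNL, against 917, 1078 and 1012 CPM. Igf1, a growth factor that macrophages release in healing muscle, was at 204, 277 and 238 CPM against 237, 256 and 248 CPM. Csf2ra, the binding chain of the GM-CSF receptor, was at 139, 175 and 159.6 CPM against 158, 182 and 174 CPM. The whole list of these genes had median log2 ratios of -0.22, -0.28 and -0.19 for cycling over other cells, 0.18 for age and -0.19 for treatment.

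The other lists of cycle genes differed little between the libraries. Chromatin and tubulin genes had median log2 ratios of -0.16 for age and 0.15 for treatment, DNA repair and checkpoint genes 0.03 and 0.08, cycle regulators -0.02 and 0.06, and cell cycle inhibitors -0.07 and 0.02, beside all-gene medians of -0.07 and 0.07. The size factor shift of 0.08 and -0.08 is as large as several of these values, so no direction is given for them. Macrophage identity genes had medians of 0.17 and -0.13, with 13 of 14 above 0 for age and 11 of 14 below 0 for treatment.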
